A study of Mus musculus with 8 samples.

Results

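The genes described here carry glucose into the cell and turn it into pyruvate and lactate: the glucose transporters Slc2a1 and Slc2a3, the enzymes Hk2, Gpi1, Pfkl, Aldoa, Pgk1, Eno1 and Ldha, and the kinase Pdk1. They were chosen by name, and every probe that the platform annotation gives to these symbols was read. Of the 10 genes, 8 had a probe there, with 9 probes in all among the 25697 probes of the array, and all 9 were detected on all 8 arrays. Gpi1 and Eno1 had no probe under their symbols in that annotation, so no value is given for them. The measurements were made on Illumina MouseRef-8 v2.0 bead arrays. The samples were 4 GRHL2 knockout clones (KO) of V6.5 and 4 GRHL2 wildtype subclones (WT) of V6.5, a mouse embryonic stem cell line, with 1 array each. All 8 were epiblast-like cells, made by leaving LIF and the 2i inhibitors (of GSK and MEK) out of the medium for 3 days. The labels give the knockout as the difference in genotype, and they also call the KO samples clones and the WT samples subclones. An effect of that derivation cannot be told apart from the knockout. Differences between clones enter the spread within a group. The series asks how GRHL2, a transcription factor known from epithelia, acts on the gene network of pluripotent cells after they leave the naive state.

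As background, facilitative transporters let glucose in, hexokinase traps it as glucose 6-phosphate, phosphofructokinase sets the pace of the committed step, and aldolase, phosphoglycerate kinase and enolase lead on to pyruvate. Lactate dehydrogenase A turns pyruvate into lactate, and pyruvate dehydrogenase kinase 1 keeps pyruvate out of the mitochondrial acetyl-CoA route by inhibiting pyruvate dehydrogenase. Pluripotent cells are known for high glycolysis, which changes as they pass from the naive to the primed state, and many of these genes are known targets of hypoxia-inducible factors (HIF) and of MYC.

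The sequence upstream of the start of 4 members is shown, one each for glucose entry (Slc2a1), the hexokinase step (Hk2), the aldolase step (Aldoa) and lactate production (Ldha), because these promoters are where the factors named above can bind. Each line is the 250 bases before an annotated start in RefSeq (GRCm38.p6), 5′ to 3′ on the gene's strand. They are chr4:119108495-119108744 on the plus strand for Slc2a1, chr6:82774455-82774704 on the minus strand for Hk2, chr7:126799255-126799504 on the minus strand for Aldoa and chr7:46845554-46845803 on the plus strand for Ldha. For Aldoa and Ldha, which have 3 and 2 annotated starts, the window with the most CG dinucleotides is shown. Capitals mark ACGTG or GCGTG on either strand, the core letters that HIF recognizes. ACGTG is also part of the E-box CACGTG, which MYC recognizes.
Slc2a1: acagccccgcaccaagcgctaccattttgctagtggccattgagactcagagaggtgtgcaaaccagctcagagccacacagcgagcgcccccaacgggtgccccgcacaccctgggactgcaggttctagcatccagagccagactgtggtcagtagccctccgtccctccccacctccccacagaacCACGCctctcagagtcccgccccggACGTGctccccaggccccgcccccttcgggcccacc
Hk2: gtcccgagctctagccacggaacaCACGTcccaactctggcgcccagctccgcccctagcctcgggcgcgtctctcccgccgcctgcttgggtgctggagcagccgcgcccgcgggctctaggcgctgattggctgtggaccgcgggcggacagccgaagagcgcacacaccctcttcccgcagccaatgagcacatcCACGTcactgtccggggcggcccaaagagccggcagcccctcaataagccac
Aldoa: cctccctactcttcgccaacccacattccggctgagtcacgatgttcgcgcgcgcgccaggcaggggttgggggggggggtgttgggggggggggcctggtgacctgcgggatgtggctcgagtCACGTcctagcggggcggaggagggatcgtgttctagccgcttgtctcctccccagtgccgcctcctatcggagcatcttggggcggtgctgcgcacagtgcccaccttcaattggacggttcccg
Ldha: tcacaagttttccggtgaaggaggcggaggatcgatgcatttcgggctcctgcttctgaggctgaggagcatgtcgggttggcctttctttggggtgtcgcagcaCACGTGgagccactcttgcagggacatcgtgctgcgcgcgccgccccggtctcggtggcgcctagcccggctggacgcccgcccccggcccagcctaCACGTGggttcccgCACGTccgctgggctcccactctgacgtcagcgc
Ldha held the core letters at 5 places, 4 of which made up a pair of CACGTG, while Slc2a1 and Hk2 held them at 2 places each and Aldoa at 1. Over all members, 9 had a window in the table, and 8 of them held the letters in at least 1 window (12 of 15 windows). All but Gpi1 did so, and Slc2a3 had no window there. The letters are common: 38.6% of all 32851 windows and 41.5% of all genes held them. The letters AACCNGGTT, with any base at N, were found in 0 of the 15 member windows and in 0.24% of all windows. Forms without the base N were not searched, so this count does not show whether grainyhead sites are absent. All these counts are matches of letters in short windows and say nothing of binding.

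The arrays and labels were checked first. Mean intensity before normalization was 508 ± 51.5 on KO arrays and 703 ± 32.4 on WT arrays (SD, n = 4 each), so KO arrays stood at 72.3% of WT arrays (exact two-sided permutation p = 0.0286, the smallest the design allows). Grhl2 itself was 7.71 ± 0.43 in KO and 8.84 ± 0.60 in WT on the log2 scale (SD, n = 4 each; limma adjusted p = 0.0369), with all KO arrays below all WT arrays. It passed without WT replicate 3 or without KO replicate 1, and missed the threshold without any other single array (highest adjusted p = 0.0815). Its probe was still detected on all KO arrays. Where the probe lies on the knocked-out gene was not stated, so it may not check the deletion. Of the epiblast label's markers, 7 of 8 (epiblast and pluripotency genes) had a probe and all 7 were tested, with a summed linear level of 30700 to 32300 in KO and 26400 to 32500 in WT. The lowest WT sum, 26400, was that of WT replicate 3. Summing hides that 5 were higher in KO and 2 lower, with log2 differences from -0.57 to 0.88. Of the 7, 2 passed the threshold, both higher in KO (28.6%, beside 13.7% of all genes tested). Of 6 fibroblast markers, Col1a1, Col1a2, Lum and Postn were detected on no array, while Thy1 and Dcn were tested, with a summed level of 379 to 643 in KO and 362 to 454 in WT. None of 4 endoderm markers was retained, and Gata4 was detected on no array, nor were Elf5 and Hand1 of the trophoblast or Foxa2 and Mesp1 of the primitive streak. The summed level of 5 naive pluripotency markers was 2470 to 2770 in KO and 3860 to 4820 in WT, though they went both ways: Klf2 rose (log2 difference 1.03), Nanog fell (-1.03) and the list's median was -0.03. The sum of the trophoblast markers Eomes and Krt7 was 91 to 115 in KO and 119 to 262 in WT, highest on WT replicate 3. Krt7 carried that high sum, since Eomes on WT replicate 3 differed by -0.439 (log2) from the mean of the other WT arrays. The part of these in the results below was not tested.

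Between KO and WT, the members' transcripts showed no change that passed the test. Of 8 members tested, 0 rose and 0 fell (limma, Benjamini-Hochberg adjusted p under 0.05 over 8830 genes), where 13.7% of all genes tested passed, 6.55% higher in KO and 7.17% lower. Of the 9 member probes, 0 passed in a fit over all probes, where 13% of probes passed. At an unadjusted p under 0.05 there were 2, the transporters Slc2a1 and Slc2a3, both lower in KO, against 32% of all genes (15.4% lower in KO). The groups of arrays overlapped for all 8 members, while they did not overlap for 23.2% of all genes. The log2 differences (KO minus WT) ran from -0.50 for Slc2a1 to 0.24 for Aldoa, 4 of them below 0 and 4 above, with a median of -0.04, beside 0.01 over all genes tested. A difference that missed the threshold does not show equal levels, and the 95% intervals below give the sizes that remained possible. In bulk RNA, fewer cells that carry a transcript and less transcript in each cell cannot be told apart.

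**Figure D1:**
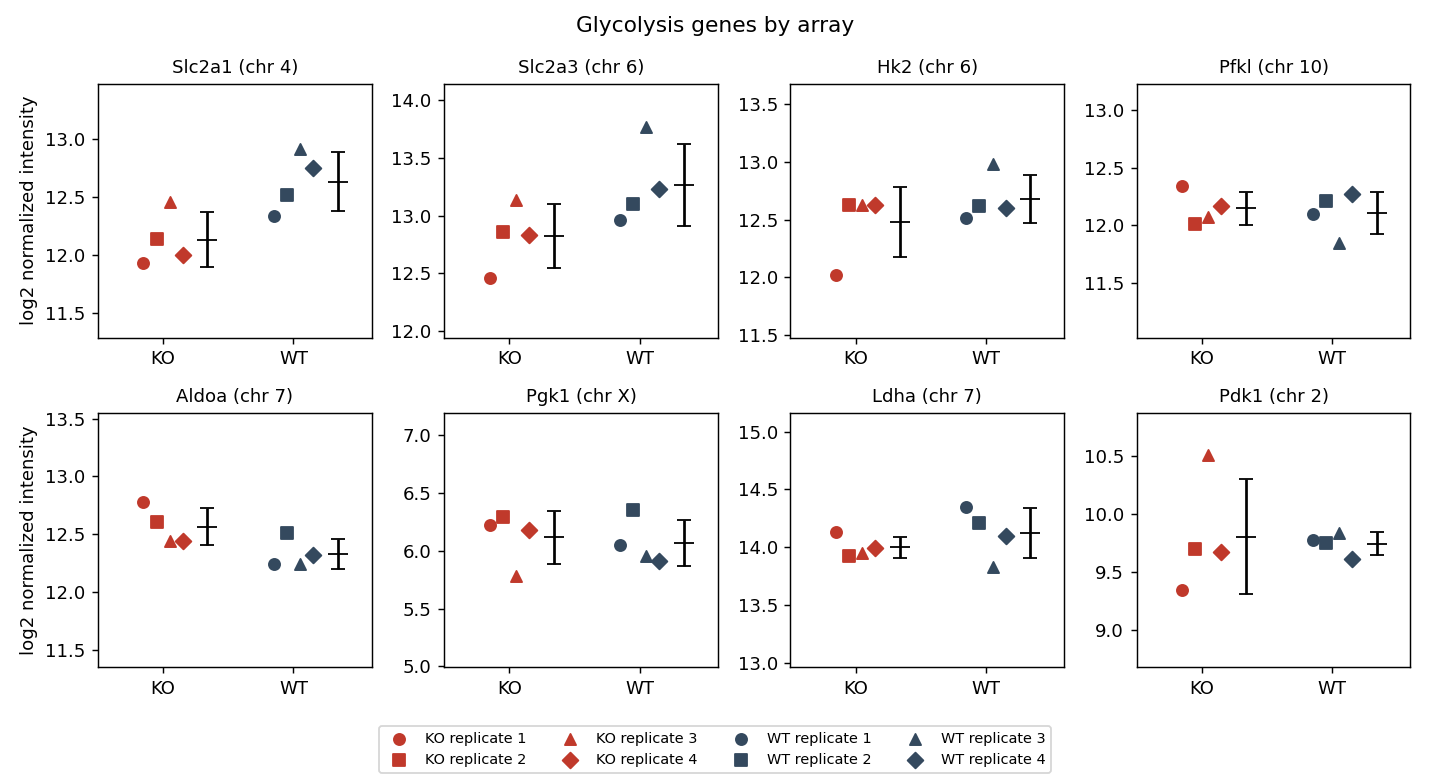
Log2 normalized intensity (y axis, 2.2 log2 units high in every panel) of the 8 members in KO (left, red) and WT (right, blue), a point for each array with its replicate number as the symbol; the bar is the mean with SD (n = 4). The groups overlap in all panels, and KO lies lowest against WT for Slc2a1 (12.13 against 12.63) and Slc2a3 (12.82 against 13.27).

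Of the members, the pair of glucose transporters came closest to the threshold. Slc2a1 (GLUT1, chr4:119108745-119137330) is the transporter of basal glucose uptake in most cells. Its log2 intensities were 11.93, 12.14, 12.46 and 12.00 on KO arrays 1 to 4, against 12.34, 12.52, 12.92 and 12.75 on WT arrays 1 to 4. The lowest WT array lay below the highest KO array, and the other 3 KO arrays were below all WT arrays. The difference was -0.50 (SE 0.16, 95% interval -0.86 to -0.14), a level in KO of 0.707 times that in WT, with a limma adjusted p of 0.0647. That lies close to the threshold of 0.05, and the outcome turned on the processing: Slc2a1 passed in 8 of 23 alternatives, among them the fits without background correction (adjusted p = 0.0434), with array weights (0.0376) and with an intensity trend and robust variances (0.0268). The fit on the authors' deposited normalized values gave the same result as that without background correction, yet both count among the 8. Also among them were no between-array normalization and median scaling, under which 5766 and 3601 of all 8830 genes passed. Slc2a1 missed the threshold whichever single array was left out (adjusted p from 0.0525 to 0.142).

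Slc2a3 (GLUT3, chr6:122727809-122802363), a transporter of high affinity, gave 12.46, 12.86, 13.14 and 12.83 on KO arrays 1 to 4. On WT arrays 1 to 4 it gave 12.96, 13.10, 13.77 and 13.23. KO replicate 3 lay above WT replicates 1 and 2, and WT replicate 3 stood above every other array. The log2 difference was -0.44 (SE 0.20, 95% interval -0.88 to -0.0045; 0.735 times WT; adjusted p = 0.152). Without WT replicate 3 it was -0.27 (adjusted p = 0.266).

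Hk2 (hexokinase 2, chr6:82725025-82774454) makes glucose 6-phosphate, the entry to glycolysis. It gave 12.02, 12.63, 12.63 and 12.63 on KO arrays 1 to 4, against 12.51, 12.62, 12.98 and 12.60 on WT arrays 1 to 4. All but KO replicate 1, which was low, and WT replicate 3, which was high, lay within a narrow band. The log2 difference was -0.20 (SE 0.17, 95% interval -0.58 to 0.17; adjusted p = 0.436), and without both of those arrays it was 0.05 (adjusted p = 0.736). It was -0.79 with no normalization between arrays (adjusted p = 0.00113), -0.56 with median scaling (0.0127) and -1.14 with array brightness as a covariate (0.237).

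The enzymes in the middle of the pathway, Pfkl, Aldoa and Pgk1, had positive log2 differences after quantile normalization, and none passed the threshold. Each was negative with no between-array normalization. Pfkl (the liver-type subunit of phosphofructokinase, chr10:77986947-78009807) had a pair of probes. The brighter gave 12.34, 12.01, 12.07 and 12.17 on KO arrays 1 to 4, against 12.10, 12.21, 11.85 and 12.27 on WT arrays 1 to 4. Its groups lay over each other, with a log2 difference of 0.04 (SE 0.13, 95% interval -0.24 to 0.32; adjusted p = 0.852). The dim probe had intensities of 143 to 166 on KO arrays and 156 to 234 on WT arrays, near the floor of detection (the dimmest detected probe of each array had 133 to 164), and a log2 difference of 0.03 (SE 0.27) in a fit over all 12790 retained probes (adjusted p = 0.958).

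Aldoa (aldolase A, chr7:126795234-126800994), which splits fructose 1,6-bisphosphate, was the member with the highest positive difference. It gave 12.78, 12.60, 12.44 and 12.44 on KO arrays 1 to 4, against 12.24, 12.51, 12.24 and 12.32 on WT arrays 1 to 4. WT replicate 2 alone reached into the KO range. The log2 difference was 0.24 (SE 0.12, 95% interval -0.03 to 0.50; adjusted p = 0.196).

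Pgk1 (phosphoglycerate kinase 1, chrX:106187100-106203699) makes the first ATP of the pathway. Its only probe was dim, at 157 to 180 on KO arrays and 193 to 215 on WT arrays before normalization, which limits what it can show. Its log2 values were 6.22, 6.29, 5.78 and 6.18 on KO arrays 1 to 4 and 6.05, 6.35, 5.96 and 5.91 on WT arrays 1 to 4, a difference of 0.05 (SE 0.15, 95% interval -0.28 to 0.38; adjusted p = 0.841).

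At the end of the pathway, Ldha (lactate dehydrogenase A, chr7:46842274-46855627) gave 14.13, 13.92, 13.95 and 13.99 on KO arrays 1 to 4, against 14.35, 14.21, 13.83 and 14.10 on WT arrays 1 to 4. The KO arrays lay within the WT range, with a log2 difference of -0.12 (SE 0.13, 95% interval -0.41 to 0.16; adjusted p = 0.535). Pdk1 (chr2:71873215-71903858) was the least even member in KO. It gave 9.34, 9.70, 10.51 and 9.67 on KO arrays 1 to 4, against 9.78, 9.75, 9.84 and 9.61 on WT arrays 1 to 4. Its SD was 0.49 in KO and 0.10 in WT, KO replicate 3 being the high array. The log2 difference was 0.06 (SE 0.21, 95% interval -0.42 to 0.54; adjusted p = 0.874), and -0.17 without KO replicate 3 (adjusted p = 0.416).

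Within a genotype, members differed from clone to clone, and KO replicate 1 and WT replicate 3 are described because each is also shifted over a chromosome. On KO replicate 1, Slc2a1, Slc2a3, Hk2 and Pdk1 were at their lowest among KO arrays, while Pfkl, Aldoa and Ldha were at their highest. On WT replicate 3, Slc2a1, Slc2a3, Hk2 and Pdk1 were at their highest among WT arrays, while Pfkl and Ldha were at their lowest. The members that were lower on KO replicate 1 than on the mean of the other KO arrays were so by 0.27 (Slc2a1), 0.48 (Slc2a3), 0.61 (Hk2) and 0.62 (Pdk1) on the log2 scale. For Slc2a3, Hk2 and Pdk1 these deviations of 1 clone exceeded the difference between the genotypes, and for Slc2a1 they did not. A member's probe rested on 17 to 52 beads (median 37) per array, with a standard error over beads of 1.59% to 6.92% of the intensity.

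KO replicate 1 and WT replicate 3 each carried a shift of a whole chromosome, and that of WT replicate 3 covers 2 members. On chromosome 6, the 428 tested genes had a median log2 difference of 0.40 between WT replicate 3 and the other WT arrays, with 88.3% of them above 0. Slc2a3 and Hk2 lie on chromosome 6. Hk2 deviated there by 0.41, close to the median of its chromosome, and 209 of the 428 genes deviated by as much or more. Slc2a3 deviated by 0.68, which 97 of the 428 genes reached. Slc2a1, on chromosome 4, deviated by 0.38, while the median over its chromosome was 0. When each array was centred on the genes of the same chromosome, the log2 difference was -0.28 for Slc2a3 (adjusted p = 0.172) and -0.04 for Hk2 (adjusted p = 0.855), and -0.55 for Slc2a1, which then passed (adjusted p = 0.0489). On KO replicate 1 the genes of chromosome 8 had a median shift of -0.43 against the other KO arrays, and no member lies there. Smaller shifts also covered members: KO replicate 1, the low KO array for Slc2a3 and Hk2, had a median of -0.16 on chromosome 6, with 33.4% of genes above 0. WT replicate 4 had 0.15 on chromosome 2, where Pdk1 lies, with 76.7% of genes above 0.

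**Figure D2:**
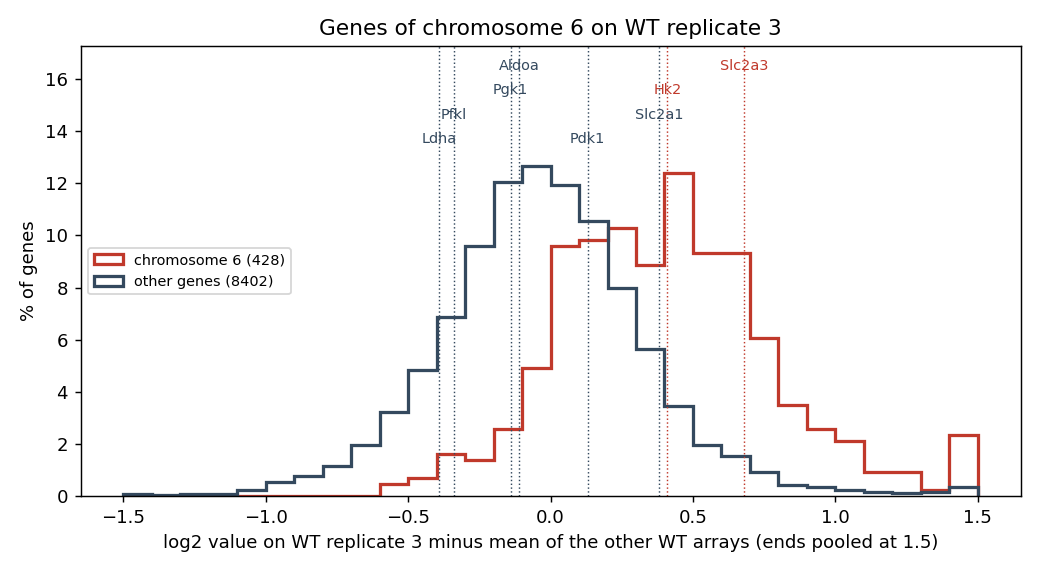
Difference between WT replicate 3 and the mean of the other WT arrays (x axis, log2; the most extreme values are pooled at the ends) as % of genes (y axis), for the 428 tested genes of chromosome 6 (red) and the other genes tested (blue); dotted lines mark the 8 members. Chromosome 6 lies to the right of the others, Hk2 (0.41) near its middle and Slc2a3 (0.68) in its upper part, while Slc2a1 (0.38), on chromosome 4, lies to the right of most genes off chromosome 6.

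The brightness of the arrays bears on every direction given here. Before normalization, KO intensity was 47.9% of WT for Slc2a1, 51.6% for Slc2a3 and 58.3% for Hk2, below the 72.3% of all probes. It was 68.2% for the brighter Pfkl probe, 69.3% for Pdk1, 73.0% for Ldha, 80.3% for Aldoa and 80.7% for Pgk1. Background is left in these intensities and raises the ratio of a dim probe such as that of Pgk1. Slc2a1, for example, had intensities of 2852 to 4682 on KO arrays against 6410 to 8813 on WT arrays. All KO intensities lay below all WT intensities for 4 of the 8 members, where 68.1% of all genes tested did so. With no normalization between arrays the median of all genes was -0.58, and with median scaling it was -0.35. On these scales all 8 members were below 0, so Pfkl, Aldoa, Pgk1 and Pdk1 turned their sign. Relative to the median of all genes, Slc2a1 was at -0.51, Slc2a3 at -0.38, Hk2 at -0.21 and Aldoa at 0.23 under both of these scalings, close to the -0.51, -0.46, -0.22 and 0.22 of quantile normalization. Pgk1 was at 0.08 under both, against 0.04. By this measure Ldha turned (0.12 under both, against -0.14) and so did Pdk1 (-0.07 under both, against 0.05), each by less than its 95% interval spans. With the mean intensity of an array as a covariate, 7 genes passed in all, with 0 members and 0 of the other pathway genes below.

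**Figure D3:**
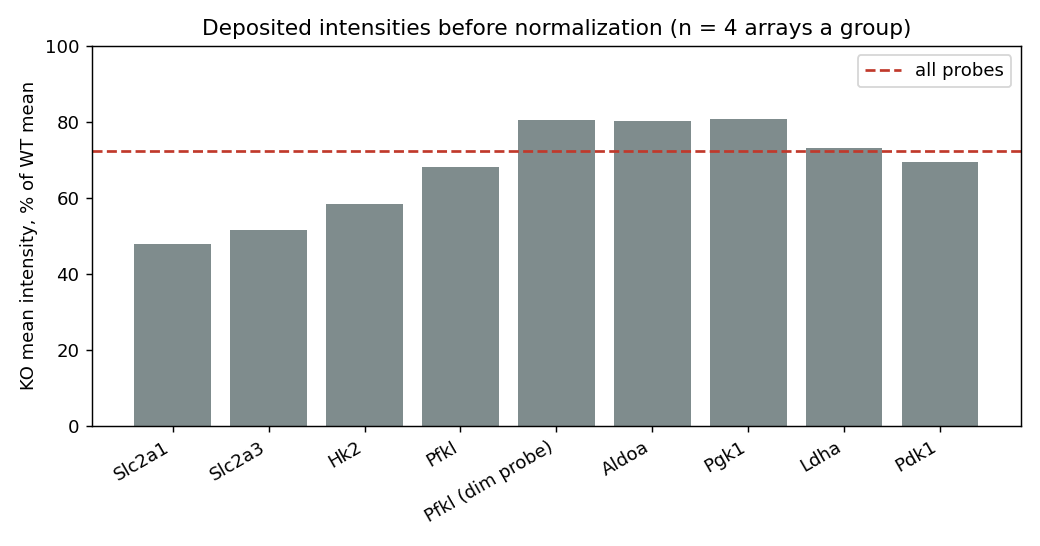
Mean deposited intensity on KO arrays as % of the mean on WT arrays (y axis, from 0) for the 9 member probes; the dashed line is the same ratio over all probes (72.3%). Slc2a1 (47.9%), Slc2a3 (51.6%) and Hk2 (58.3%) lie furthest below the line, Pgk1 (80.7%) and Aldoa (80.3%) above it. Background is left in, which raises the ratio of dim probes such as that of Pgk1.

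In a difference between members on the same array, any factor common to the whole array cancels. Taken on background-corrected log2 values with no normalization between arrays, Slc2a1 minus Aldoa was -0.89, -0.46, 0.02 and -0.44 on KO arrays 1 to 4, against 0.10, 0.02, 0.66 and 0.42 on WT arrays 1 to 4. The groups met at 0.02. Of the 28 pairs of members, 0 had groups that did not overlap. No test is given, since the smallest p that 4 against 4 arrays allow (0.0286) hardly survives adjustment over 28 pairs, and pairs of other genes were not compared. Without background correction, a setting added after the data were seen, 2 pairs did not overlap.

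**Figure D4:**
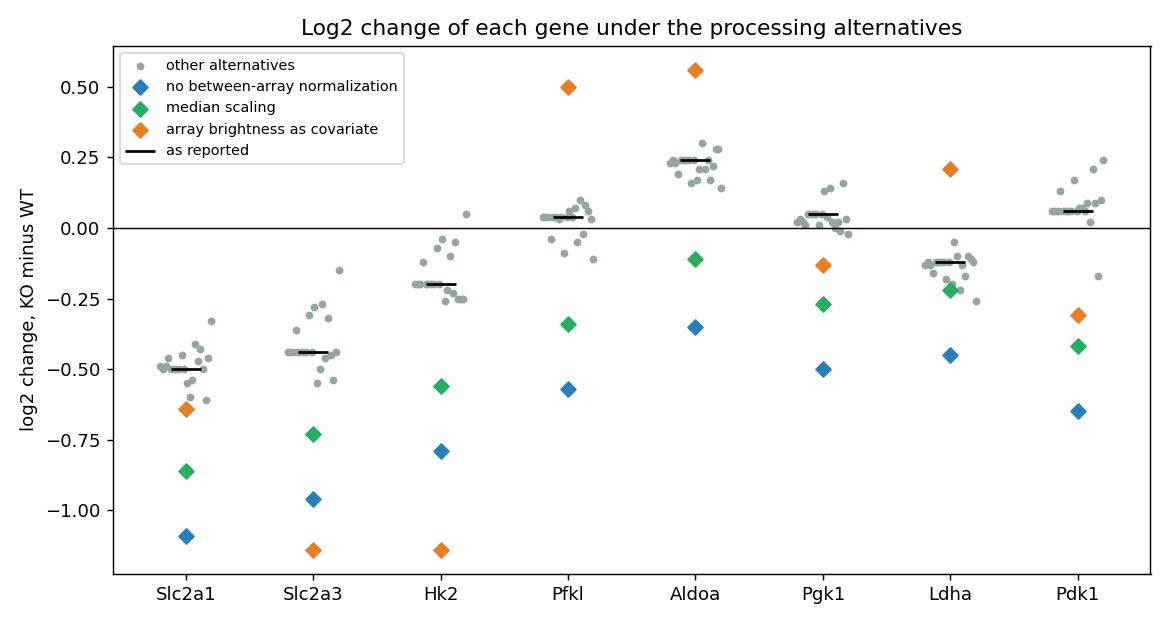
Log2 difference, KO minus WT (y axis), of each member as reported (black line), with no between-array normalization (blue), with median scaling (green), with array brightness as a covariate (orange) and under the other alternatives (grey). Slc2a1 and Slc2a3 lie below 0 under every alternative run, while every other member crosses 0 under at least 1.

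Eno1 could not be read under its own symbol, but the array has a probe for Eno1b, a retrotransposed copy of Eno1. It was picked after its values were seen. Eno1b gave 9.22, 9.27, 9.37 and 9.27 on KO arrays 1 to 4, against 8.26, 8.82, 8.27 and 8.13 on WT arrays 1 to 4. All KO arrays lay above all WT arrays, and Eno1b rose by 0.91 on the log2 scale (SE 0.15, adjusted p = 0.00821). Before normalization its intensities overlapped, at 494 to 648 on KO arrays and 481 to 656 on WT arrays, and with no normalization between arrays the log2 difference was 0.20 (adjusted p = 0.325) and with median scaling 0.43 (adjusted p = 0.0519). The sources used here give no probe sequence, so how far this probe reads Eno1 itself is uncertain.

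The wider pathway was read in the same fit. Of 88 further genes in 9 lists, 77 had a probe, 50 were tested, 1 passed higher in KO and 2 lower, which is 6% of those tested beside 13.7% of all genes. The share depended on the threshold: at an unadjusted p under 0.05 it was 38% beside 32% of all genes, and at an adjusted p under 0.1 it was 24% of either. Their median log2 difference was 0.06, beside 0.01 over all genes. Transporters other than the members (4 of 8 tested, all with a log2 difference above 0 and a median of 0.32), other glycolytic enzymes (10 of 17), phosphofructokinase-2 enzymes (2 of 5), gluconeogenic enzymes (4 of 7), HIF regulators and hypoxia targets (12 of 21) and MYC factors (3 of 4) held 0 genes past the threshold. Of the 10 other glycolytic enzymes tested, 8 were higher in KO and 2 lower, with a median log2 difference of 0.24.

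On the normalized scale the log2 differences of the glucose transporters did not share a sign, and none passed the threshold. With no between-array normalization the transporters Slc2a8 (-0.19) and Slc2a6 (-0.17) were negative, as Slc2a1 and Slc2a3 were. Without background correction Slc2a8 was at 0.15 and Slc2a6 at 0.07. The probes of both are dim, and that of Slc2a10 was detected on only 2 KO and 2 WT arrays. Slc2a4 (GLUT4, the insulin-responsive transporter), named after its values were seen, gave 5.55, 5.02, 5.60 and 5.03 on KO arrays 1 to 4, against 4.91, 4.94, 4.59 and 4.75 on WT arrays 1 to 4. All KO arrays lay above all WT arrays, with a log2 difference of 0.50, opposite in sign to Slc2a1 and Slc2a3 (SE 0.16, adjusted p = 0.069). The probe is dim, detected on 4 KO arrays and 2 WT arrays, so the KO arrays, where it was higher, were enough to meet the filter. Without background correction the difference was 0.13 (adjusted p = 0.18).

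The lactate group (3 of 7 tested) held 1 gene past the threshold, lower in KO. Ldhc, the lactate dehydrogenase of the testis, gave 4.58, 5.17, 4.69 and 4.92 on KO arrays 1 to 4, against 6.09, 6.07, 6.70 and 5.77 on WT arrays 1 to 4. The probe was detected on 1 KO array and on 4 WT arrays, so it met the filter only through WT, and the KO values lie at background. The log2 difference was -1.32 (SE 0.20, adjusted p = 0.00629), and its size depended on the background correction: without it the difference was -0.39 (adjusted p = 0.0144). Its other probes gave a log2 difference of -0.61 (adjusted p = 0.0119) and -0.37 (adjusted p = 0.186).

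Among 8 of 12 tested genes around pyruvate dehydrogenase, Pdha1, which encodes the E1 alpha subunit that PDK1 phosphorylates, was the only gene past the threshold. It gave 11.41, 11.08, 11.13 and 11.09 on KO arrays 1 to 4, against 11.85, 11.58, 11.71 and 11.62 on WT arrays 1 to 4. The groups did not meet, and Pdha1 fell by 0.51 (SE 0.12, adjusted p = 0.0226). Without WT replicate 1 or 4 or KO replicate 2, 3 or 4 the adjusted p was above 0.05, up to 0.0639.

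In the pentose phosphate pathway, 4 of 7 genes were tested and Tkt (transketolase) rose, by 0.47 (SE 0.13, adjusted p = 0.0419). It gave 12.18, 12.50, 12.05 and 12.04 on KO arrays 1 to 4, against 11.60, 11.80, 11.85 and 11.64 on WT arrays 1 to 4. Its other probes had the opposite sign without passing (-0.27, adjusted p = 0.366, and -0.31, adjusted p = 0.179), and the mean of its probes gave -0.03. The call was lost without any array other than WT replicate 3 (adjusted p up to 0.0991), and with median scaling the difference was 0.08.

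**Figure D5:**
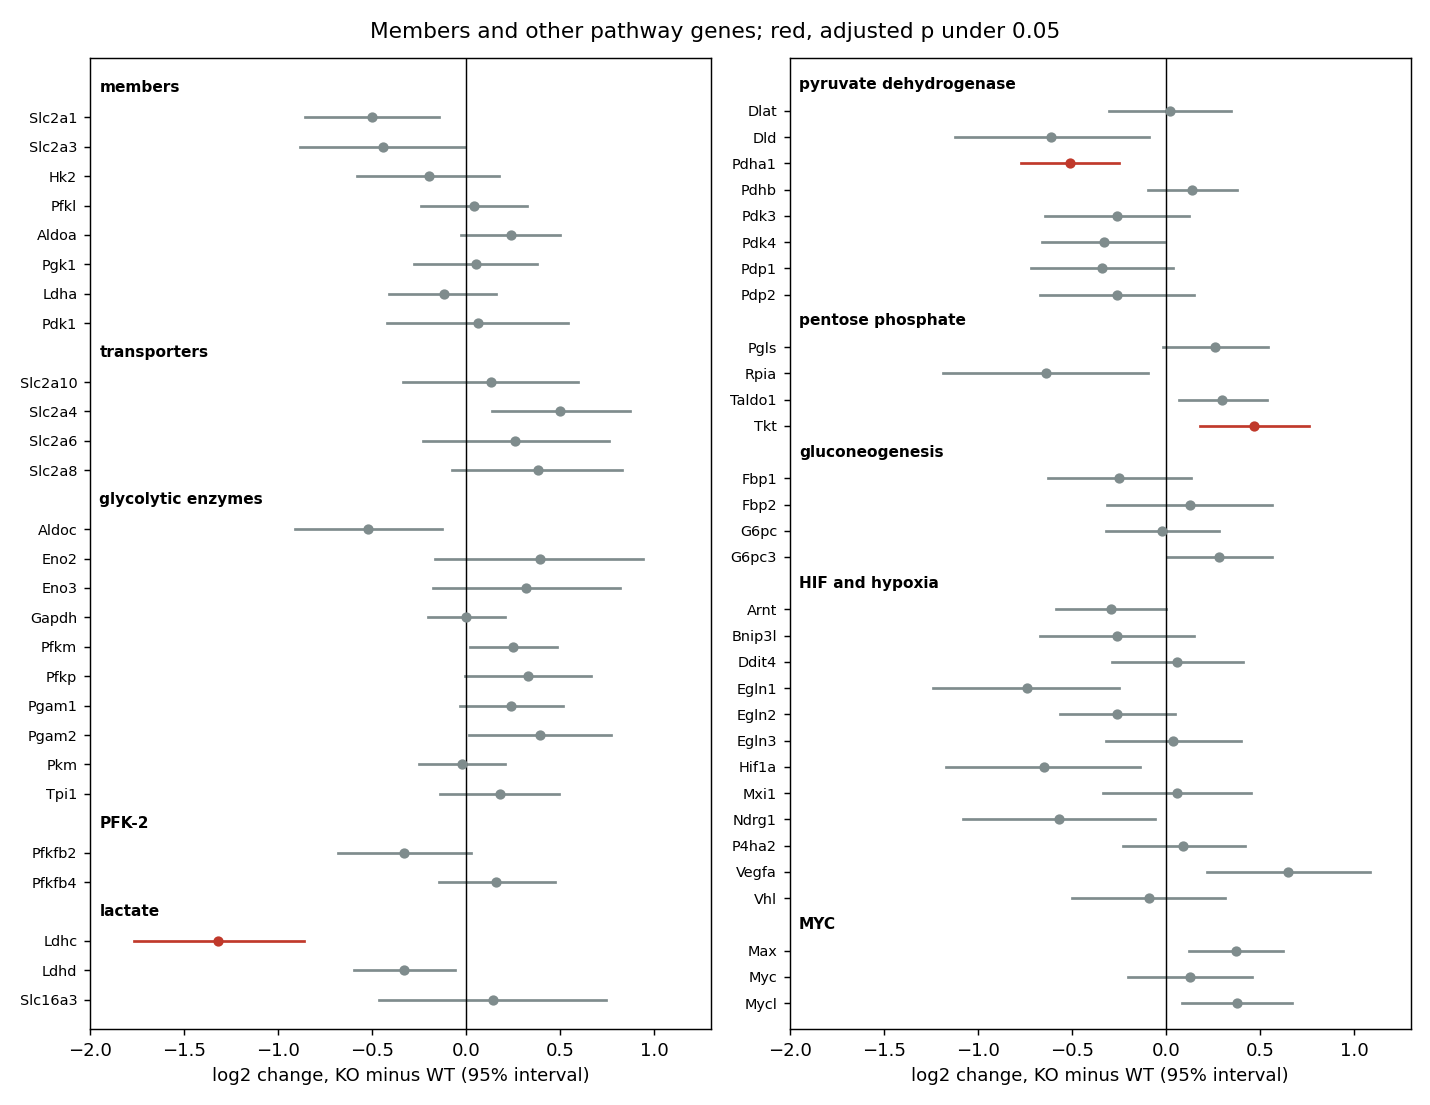
Log2 difference, KO minus WT (x axis, with 95% intervals), of the 8 members and of the 50 tested genes of the 9 other lists, each named at the left. Red marks an adjusted p under 0.05, which Ldhc (-1.32), Pdha1 (-0.51) and Tkt (0.47) had, and no member.

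The brightest genes of the lists with no call are given as values. Gapdh was 14.74 ± 0.03 in KO and 14.74 ± 0.06 in WT, and Pkm, the pyruvate kinase of most tissues, was 13.90 ± 0.04 in KO and 13.92 ± 0.13 in WT (SD, n = 4 each). These probes are among the brightest on the arrays, where quantile normalization leaves little room to differ. With no between-array normalization Gapdh was at -0.21 (limma adjusted p = 0.229) and Pkm at -0.39 (0.0457), beside a median of -0.58 over all genes. The transporter Slc2a8 ranged over 5.99 to 6.78 in KO and 5.70 to 6.34 in WT, and Slc2a6 was 5.64 ± 0.25 in KO and 5.37 ± 0.46 in WT. Pfkfb4 and Pfkfb2, which make the activator of phosphofructokinase, were 6.74 ± 0.13 and 5.87 ± 0.32 in KO, against 6.58 ± 0.25 and 6.20 ± 0.13 in WT. The phosphatases G6pc3 and Fbp2 were 6.98 ± 0.15 and 5.19 ± 0.37 in KO, against 6.69 ± 0.18 and 5.06 ± 0.27 in WT. Fbp2 was detected on only 2 KO and 3 WT arrays, and Slc2a6 on 4 KO and 3 WT arrays, so their values lie near background. Among hypoxia targets, Bnip3l was 10.70 ± 0.26 in KO and 10.96 ± 0.32 in WT, and Ddit4 was 9.10 ± 0.12 in KO and 9.04 ± 0.31 in WT. Max, the partner of MYC, was 11.05 ± 0.16 in KO and 10.68 ± 0.08 in WT, and Mycl was 10.56 ± 0.09 in KO and 10.18 ± 0.23 in WT. For Max and Mycl all KO arrays lay above all WT arrays on this scale, and with no normalization between arrays each had a log2 difference of -0.31. Groups that did not overlap, in either direction, were found for 20% of the 50 pathway genes and 23.2% of all genes tested. With the mean of its probes Max had a log2 difference of 0.15 (limma adjusted p = 0.54), against 0.37 for its brightest probe.

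The authors' deposited table, which compares the same arrays, called 0 of the 9 member probes at an adjusted p under 0.05, where it called 8.62% of all probes and 18.2% of those that stood for the genes tested here. In the authors' deposited table Slc2a1 had a log2 difference of -0.46 and an adjusted p of 0.0616, Slc2a3 had -0.36 and 0.229, and Aldoa had 0.19 and 0.21. It called 5 of the 50 other pathway genes. Those were Ldhc, Pdha1, Tkt, Taldo1 and Max, with log2 differences in the authors' deposited table of -0.34, -0.49, 0.49, 0.31 and 0.35. On the authors' deposited normalized values Slc2a1 gave 11.93, 12.14, 12.46 and 12.01 on KO arrays 1 to 4 and 12.34, 12.52, 12.92 and 12.74 on WT arrays 1 to 4, and the fit used here, run on those values, called it (adjusted p = 0.0434). That is the same result as without background correction, so these calls are not independent.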

How the data were processed

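Each probe and array has, per the file headers of the deposited profile, a mean bead intensity, a detection p-value, the bead standard error (in intensity, as a signal) and the bead count. The authors also deposited log2 values, quantile normalized judging by their equal columns, and a comparison table with log2 fold changes, p-values and moderated scores; the series value table was identical to the former (largest difference 0). The submitters' processing notes name limma.

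The neqc function corrected background and quantile normalized the intensities (limma 3.58.1, R 4.3.3; offset 16). A probe stayed in where its detection p was below 0.05 on 4 or more arrays (12790), and the brightest stood for its gene (8830 genes). Symbols came from the platform annotation, chromosomes and coordinates from RefSeq (GRCm38.p6). KO was compared with WT by lmFit and eBayes, two-sided, Benjamini-Hochberg adjusted over all genes. The fit was tested on simulated data. Members and lists were chosen with earlier results of these data known. Named were Grhl2, every member, and in each list the genes past the threshold or else its 2 brightest, as values. The sources used here name no chip or day. With 1 array per clone, the p-values weigh a difference against a spread within groups that mixes clones and arrays. Alternatives covered background, scaling, filter, probe, variance, weights, brightness, chromosome centring, a replicate block, and leaving out arrays. The number of arrays limits the precision.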

Additional observations from a re-analysis of the deposited data

Results flagged for a closer look

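Dixon's 95% criterion for 4 arrays was applied to 52 groups of values, of which chance alone would flag about 1 in 20. It picked out 3 values on 2 arrays. Hk2 was 12.02 on KO replicate 1, against 12.63 on each of the other KO arrays. Pdha1 was 11.41 on KO replicate 1, against 11.08 to 11.13 on the other KO arrays. Grhl2 was 7.06 on KO replicate 3, against 7.86 to 7.99 on the other KO arrays.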

How the results depend on the processing

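Counts of genes past the threshold moved with scaling and weighting. Over all genes (1211 as reported) the count was 167 at an adjusted p of 0.01, 2121 at 0.1, 5766 with no between-array normalization (36 higher, 5730 lower), 3601 with median scaling (135 higher, 3466 lower), 2085 with array weights, 7 with array brightness as covariate and 531 to 1440 with 1 array left out. Members past the threshold (0 as reported) and member probes (0) were each 1 at 0.1, 1 without background correction, 1 with offset 50, 7 with no between-array normalization, 3 with median scaling, 1 on the authors' deposited normalized values, 1 with trend and robust variances and 1 with array weights; members were 1 with chromosome centring, and both were 0 with any 1 array left out. The other pathway genes past the threshold (3 as reported) were 1 at 0.01, 12 at 0.1, 7 without background correction, 5 with offset 50, 29 with no between-array normalization, 16 with median scaling, 7 on the authors' normalized values, 5 in the authors' deposited table, 5 with the mean of probes, 8 with trend and robust variances, 12 with array weights, 0 with brightness as covariate, 9 without WT replicate 3 and KO replicate 1 together, and 1 to 6 with 1 array left out. The members' median log2 difference (-0.04) was -0.61 with no between-array normalization, -0.38 with median scaling, -0.22 with brightness as covariate, and -0.14 to -0.01 with 1 array left out. Grhl2 was -1.13 without detection filter (adjusted p = 0.0675), -0.77 with brightness as covariate (0.765), and -1.36 to -0.87 with 1 array left out. Brightness of KO arrays was 68.2% of WT without WT replicate 3 and KO replicate 1 together and 69.3% to 75.2% with 1 array left out. The exact permutation p without both arrays was 0.1, the smallest that the remaining arrays allow.

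Signs turned as follows for the members, Tkt and the genes given as values. With no between-array normalization, Pfkl was at -0.57 (dim probe -0.44), Aldoa -0.35, Pgk1 -0.50, Pdk1 -0.65, Tkt -0.15, Pfkfb4 -0.45, Ddit4 -0.64, Slc2a8 -0.19, Slc2a6 -0.17, G6pc3 -0.34, Fbp2 -0.20, Max -0.31 and Mycl -0.31. With median scaling, Pfkl was at -0.34 (dim probe -0.21), Aldoa -0.11, Pgk1 -0.27, Pdk1 -0.42, Pfkfb4 -0.21, G6pc3 -0.10, Ddit4 -0.40, Max -0.08 and Mycl -0.08. With brightness as covariate, Pgk1 was at -0.13, Ldha 0.21, Pdk1 -0.31, Slc2a8 -0.72, Slc2a6 -0.02, Pfkfb4 -0.35, Fbp2 -0.53, Pkm 0.02 and Bnip3l 0.51. In the authors' deposited table Pfkl was at -0.04 (dim probe -0.03), and with array weights at -0.09 (dim probe -0.10). The dim Pfkl probe was at -0.01 without background correction and on the authors' normalized values, and Tkt at -0.03 with the mean of probes. Without WT replicate 3 and KO replicate 1 together, Hk2 was at 0.05, Pfkl -0.11 (dim probe -0.18) and Pgk1 -0.02. With 1 array left out, Pfkl ranged from -0.05 to 0.10 (dim probe -0.19 to 0.24), Pgk1 from -0.01 to 0.16 and Pdk1 from -0.17 to 0.21, while Fbp2 (-0.01), Ddit4 (-0.08) and Pkm (0.03) turned without 1 array each. The cause of these changes was not tested.

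Clone numbers are shared between the groups, but same-numbered arrays did not deviate together (correlations -0.04, -0.08, 0.05 and -0.04), so the main fit did not pair them. Whether they shared a chip or a day cannot be read from these correlations. With the clone number as a block, 671 genes passed, 0 members did (Slc2a1 adjusted p = 0.051), and Tkt was lost (0.0647). With 4 arrays a group, dim probes such as Pgk1 and the dim Pfkl probe lie near background, and small differences in them were not detectable.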
